A study of Mus musculus with 6 samples.

Results

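Oxidative phosphorylation is described here through the genes that encode the subunits of its 5 protein complexes, in 6 mouse RNA-seq libraries of muscle progenitors, satellite cells and fibroblasts. The members were chosen by name from 38924 genes: the Nduf families (A, B, C, S and V), Cox4 to Cox8, Uqcr, Atp5, the 4 Sdh subunits, and the mitochondrially encoded subunits of complexes I, III, IV and V. Of 99 matching names, 96 had 10 or more reads summed over the libraries and no pseudogene mark, which left out Cox8c with 0 counts, Cox7b2 with 1 count and the pseudogene Atp5l-ps1. The nucleus encodes 83 of the 96 and the mitochondrial genome 13. Complex I held 35 nuclear and 7 mitochondrial members, complex II 4 nuclear ones, complex III 8 and 1, complex IV 18 and 3, and complex V 15 and 2. Ndufa4 and Ndufa4l2, whose names recall complex I, were counted with complex IV, to which Ndufa4 is now assigned, and Atp5s, Atp5sl and Atp5l2 were kept outside the complexes.

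The respiratory chain sits in the inner mitochondrial membrane. Complexes I (NADH dehydrogenase) and II (succinate dehydrogenase, also an enzyme of the TCA cycle) pass electrons through ubiquinone to complex III, and cytochrome c carries them on to complex IV, cytochrome c oxidase, which reduces oxygen; complexes I, III and IV pump protons, and complex V, the ATP synthase, uses the gradient. Complex II is built from nuclear gene products alone, while the other complexes join nuclear subunits with a core encoded in mitochondrial DNA, which is transcribed as long polycistrons that are cut into short-tailed mRNAs. Skeletal muscle and heart replace some subunits of cytochrome c oxidase with muscle forms (Cox6a2, Cox7a1 and, in rodents, Cox8b), lung and hypoxic cells use Cox4i2, and testis uses Cox6b2.

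Induced myogenic progenitor cells (iMPCs) are muscle progenitors made from fibroblasts without a pluripotent stage, and the study set them beside satellite cells, which repair muscle. In the published method the doxycycline-induced factor is MyoD, a muscle transcription factor, which the labels do not name. A green fluorescent protein placed in the nucleus by the Pax7 gene, which encodes a satellite cell transcription factor, was used to sort Pax7+ iMPC and Pax7- iMPC, with 1 library each. Per the labels' protocol, expanded iMPC cultures had no doxycycline and received 10 ng/ml of basic FGF, 5 µM of forskolin (a cAMP-raising compound), 5 µM of RepSox (a blocker of TGF-beta receptor signalling) and 3 µM of a GSK3 inhibitor. The other groups were activated satellite cells (ASC, 1 library), mouse embryonic fibroblasts (MEF, 1 library) and quiescent satellite cells (QSC, 1 library each called mouse 1 and mouse 3 here). The titles QSC-1 and QSC-3 give a number only. They do not say whether a library holds 1 animal or a pool, so mouse stands for a library throughout. The ASC library is titled ASCmyo-Pax7-plus-p1, so it too carries a Pax7-plus mark, and a p1 mark. The labels give no strain or age, no culture medium for ASC and MEF, and do not say whether the sorted iMPCs were a clone or a bulk culture, or whether they came from embryonic or tail-tip fibroblasts. Every culture is thus known from 1 library, and tests rest on the spread between the pair of QSC mice, shared largely over all genes.

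Depth was 20859611 to 29279686 counts per library, with 18309 to 19545 genes detected. The markers fitted the labels in part. Pax7 stood at 37.8 CPM (counts scaled to a common library total) in Pax7+ iMPC, 6.25 in Pax7- iMPC, 19.8 in ASC, 0 in MEF, and 34.5 and 160 in the QSC of mouse 1 and mouse 3. The 9 satellite cell markers, Pax7 among them, summed to 2081 CPM in Pax7+ iMPC, 1109 in Pax7- iMPC, 1440 in ASC and 379 in MEF. The QSC sums were 4857 and 4437, above every culture. Single markers went both ways in Pax7+ iMPC: Calcr had 0.257 CPM, against 55.9 and 151 in QSC, and Itga7 724, against 435 and 238. The sum of 8 muscle differentiation markers was highest in ASC (14316 CPM, against 2155 in Pax7+ iMPC, 4783 in Pax7- iMPC, 7.32 in MEF, and 334 and 17.8 in the QSC mice), so the library labelled activated satellite cells carried much differentiation RNA. Fibroblast markers summed to 8052 CPM in Pax7- iMPC and 17682 in MEF, against 2025 in Pax7+ iMPC, 636 in ASC, and 1276 and 705 in QSC. The QSC libraries stood apart in 17 stress and early response genes, which took 5.40% and 7.11% of their counts, against 0.132% to 0.215% in the cultures. Markers of other cell types were also higher there. Erythroid markers (5 genes) summed to 0.483 to 2.92 CPM in the cultures, against 1299 and 20.1 in QSC of mouse 1 and mouse 3, immune markers (5) to 1.42 to 11.7, against 203 and 69.3, and endothelial markers (6) to 3.75 to 18.5, against 101 and 29.9. The adipocyte list (5) summed to 0.290 to 12.3 CPM in the cultures, against 204 and 39.1, with 3 and 4 of its genes at 0 in the QSC mice. The part of these differences in the results below was not tested.

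The balance between the mitochondrial and the nuclear members differed between QSC and every culture. Counts of mitochondrial members divided by counts of nuclear members came to 0.391 in Pax7+ iMPC, 0.284 in Pax7- iMPC, 0.263 in ASC and 0.412 in MEF, against 1.15 in QSC of mouse 1 and 2.78 in QSC of mouse 3. All 4 cultures lay below both mice, and the mice themselves lay further apart from each other than the cultures did. This ratio is taken within a library and does not depend on the scaling between libraries. The RNA was poly(A)-selected, and the part of the short tails of mitochondrial mRNAs in the ratio was not tested. In bulk RNA, fewer cells of a type and less RNA per cell cannot be told apart.

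As shares of all counts, which are scaled by library total alone, both sides of the ratio moved. Nuclear members took 2.19% of all counts in Pax7+ iMPC, 1.59% in Pax7- iMPC, 1.56% in ASC and 0.964% in MEF, against 0.955% and 0.840% in QSC of mouse 1 and mouse 3. Pax7+ iMPC was the highest library, and MEF was close to the QSC mice. Mitochondrial members took 0.857% of counts in Pax7+ iMPC, 0.451% in Pax7- iMPC, 0.411% in ASC and 0.398% in MEF, against 1.101% and 2.33% in QSC. Here the QSC mice were the highest, and Pax7+ iMPC was the nearest to them.

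**Figure D1:**
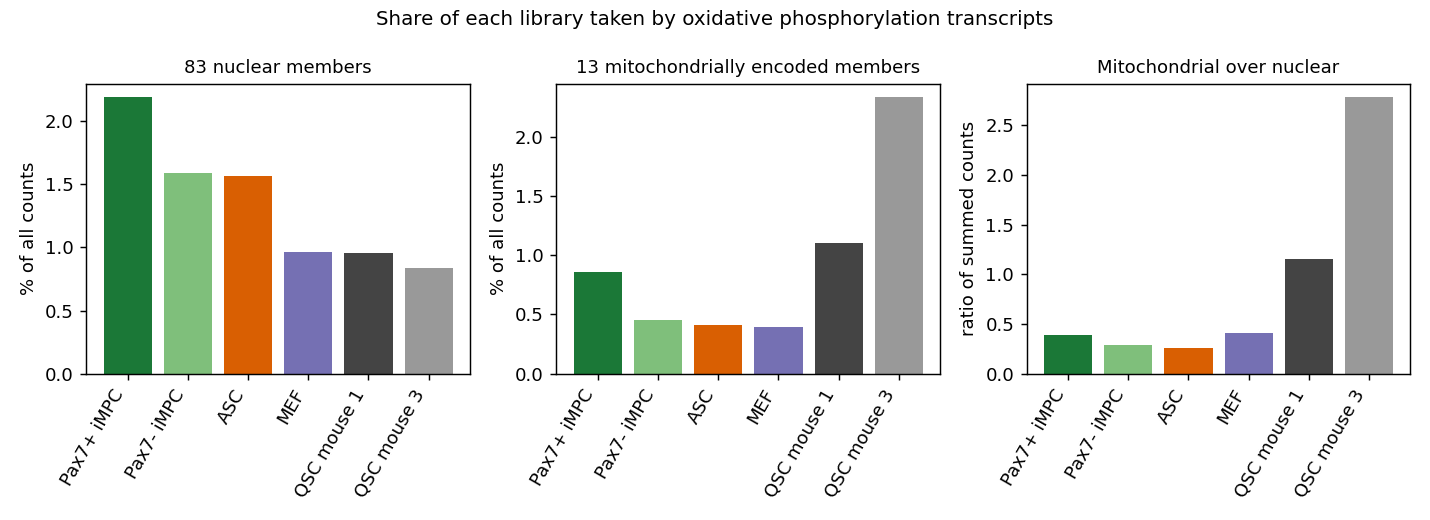
Bars give, for each of the 6 libraries, the percent of all counts taken by the 83 nuclear members (left) and by the 13 mitochondrially encoded members (middle), and the ratio of the mitochondrial to the nuclear counts (right); each bar is 1 library and has no error bar. The ratio is 0.263 to 0.412 in the 4 cultures, against 1.15 and 2.78 in the QSC mice.

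The ratio was lower in the cultures in each complex that has both kinds of subunit, with RPKM (read counts divided by gene length and library total) summed over the subunits of each genome. For complex I it was 0.382 in Pax7+ iMPC, 0.258 in Pax7- iMPC, 0.218 in ASC and 0.331 in MEF, against 0.754 and 1.95 in the QSC mice. For complex III it was 0.393, 0.273, 0.207 and 0.443 in the same cultures, against 0.741 and 2.68 in QSC. For complex IV it was 0.777, 0.509, 0.538 and 0.746 in the cultures, against 1.56 and 3.23 in QSC. For complex V it was 0.335, 0.252, 0.197 and 0.368 in the cultures, against 1.06 and 3.40 in QSC. No culture reached either mouse in any of the 4 complexes.

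The make-up of the nuclear members by complex also differed between the cultures and QSC. Complex IV took 14.6% of the nuclear members' counts in Pax7+ iMPC, 16.7% in Pax7- iMPC, 15.4% in ASC and 15.9% in MEF, against 20.5% and 22.1% in QSC of mouse 1 and mouse 3. Complex II took 7.97%, 7.15%, 7.58% and 7.90% in the cultures in the same order, against 5.07% and 5.51% in QSC. The share of complex IV was below both mice, and that of complex II above both, in all 4 cultures, while complex I (21.98% to 25.1% in the cultures, against 21.3% and 24.8% in QSC) and complex III (9.67% to 10.7%, against 10.9% and 9.85%) overlapped between them. Complex V took 44.9% in Pax7+ iMPC and 41.2% to 42.2% in the other cultures, against 42.0% and 37.5% in QSC. With 1 library per culture these shares have no test.

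Few nuclear members were called in any culture. In edgeR's quasi-likelihood test with Benjamini-Hochberg adjustment over 17116 genes at 0.05, 82 nuclear members were tested (Atp5l2 was too low). In Pax7+ iMPC against QSC 3 rose and 1 fell, where 11.3% of all genes were called up and 9.31% down. In Pax7- iMPC 4 rose and 0 fell, where 12.1% of all genes were called up and 6.57% down; no nuclear member there reached even an unadjusted p of 0.05 downwards (0 of 82), and DESeq2 also called 0. In ASC 2 rose and 1 fell, where 11.8% of all genes were called up and 8.24% down. In MEF 0 rose and 3 fell, where 11.3% were called up and 8.03% down, with 0 upwards at an unadjusted p under 0.05 and 0 by DESeq2. Each share of nuclear members called in a direction was below that of all genes tested.

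As a set the nuclear members lay on the high side in Pax7+ iMPC. The median log2 CPM difference from the QSC mean was 0.66 over the 83 in Pax7+ iMPC, where all genes tested had 0.01, and 57 of 83 lay above both mice, where 42.7% of all genes did, and 14 below both (all genes 40.6%). It was 0.26 in Pax7- iMPC (all genes 0.21), with 40 above both mice (all genes 46.8%) and 28 below (all genes 37.1%). ASC had a median of 0.32 (all genes 0.08), with 43 above both (all genes 44.0%) and 21 below (all genes 39.1%). In MEF the median was -0.52 (all genes 0.05), with 11 above both (all genes 43.5%) and 56 below (all genes 39.7%).

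These medians depend on the scaling of the libraries. With scaling by library size alone the median of all genes moved to 0.63 in Pax7+ iMPC, 0.89 in Pax7- iMPC, 0.64 in ASC and 0.63 in MEF, and that of the nuclear members to 1.33, 0.97, 0.91 and 0.12, so the MEF median turned positive while staying below that of all genes. Against mouse 1 alone the Pax7- iMPC median was 0.04, against 0.29 with mouse 3 alone.

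**Figure D2:**
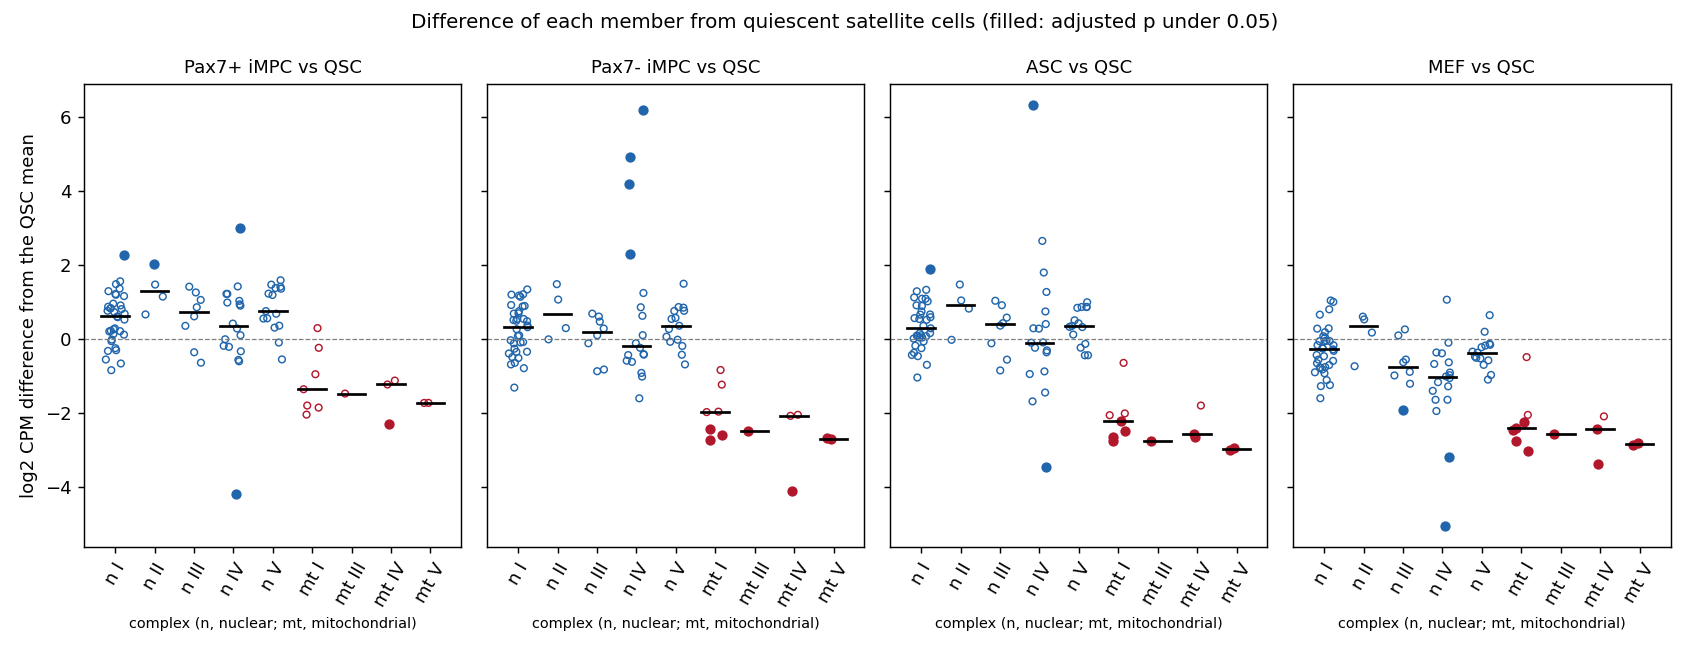
Each point is 1 member of a complex, and its height is the log2 CPM difference of the culture from the mean of the 2 QSC mice, with nuclear members (n) in blue and mitochondrial members (mt) in red; filled points passed the test, black lines are medians, and the 3 members outside the complexes are not drawn. Mitochondrial medians lie below 0 in every panel, and the points far from the rest on the nuclear side belong to complex IV. With library-size scaling the MEF nuclear median is 0.12 in place of -0.52.

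Complex II, the succinate dehydrogenase that links the TCA cycle to ubiquinone, had the highest nuclear median of the 5 complexes in all 4 cultures. In Pax7+ iMPC it was log2 1.30, with all 4 members above both mice (all genes 42.7%). The other medians there were 0.60 for complex I, 0.73 for complex III, 0.34 for complex IV and 0.75 for complex V. The complex II median was 0.67 in Pax7- iMPC, 0.93 in ASC and 0.35 in MEF. Sdhd (ENSMUSG00000000171), a membrane anchor of complex II, had 362 CPM in Pax7+ iMPC, 247 in Pax7- iMPC, 245 in ASC and 134 in MEF, against 135 and 58.1 in QSC of mouse 1 and mouse 3. Both iMPC fractions and ASC were above both mice, while MEF overlapped them. Sdhd rose in Pax7+ iMPC by 1.91 ± 0.62 (log2 fold change ± SE, edgeR adjusted p = 0.0381; 0.0167 to 0.0553 over the alternatives), and the call was lost with DESeq2-style size factors (0.0502) and with a filter of 5 CPM (0.0553). In edgeR with TMM the other subunits were not called, and Sdhc was called up with library-size scaling (adjusted p = 0.0399; 0.0399 to 0.105 over the alternatives). Sdha, the flavoprotein that oxidises succinate, had 544 CPM in Pax7+ iMPC, against 244 and 250 in QSC. Sdhb, the iron-sulphur subunit, had 331 CPM against 203 and 218, and Sdhc, the other anchor, had 241 CPM against 94.1 and 80.9, so all lay above both mice.

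Complex I gave the other core call. Ndufs1 (ENSMUSG00000025968), the largest iron-sulphur subunit of the NADH-oxidising arm, had 270 CPM in Pax7+ iMPC, 141 in Pax7- iMPC, 208 in ASC and 112 in MEF, against 64.5 and 48.7 in QSC. All 4 cultures were above both mice. It rose by 2.25 ± 0.57 in Pax7+ iMPC (log2 ± SE, edgeR adjusted p = 0.0104) and by 1.88 ± 0.57 in ASC (adjusted p = 0.0280), and stood at 1.32 ± 0.58 in Pax7- iMPC (adjusted p = 0.119) and 0.98 ± 0.58 in MEF (adjusted p = 0.244). Ndufv1 and Ndufs7, also in the electron path, did not pass in any culture: Ndufv1, which binds NADH and FMN, had 262 CPM in Pax7+ iMPC and 80.5 in MEF, against 185 and 166 in QSC. Ndufs7, the carrier of the last iron-sulphur cluster, had 137 CPM in Pax7+ iMPC and 56.4 in MEF, against 59.0 and 59.3 in QSC.

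The narrowest ranges were those of Ndufa2, which spanned 0.52 log2 units over the 6 libraries (70.4 to 101 CPM), and of Atp5sl with 0.63, followed by Ndufc1 (0.75), Cox6c (0.76) and Ndufb6 (0.76). On the scaled CPM, Pax7+ iMPC held the highest level of 44 of the 83 nuclear members and MEF the lowest of 51. Such ranks were not counted over all genes, and those of MEF against QSC depend on the scaling of the libraries.

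No nuclear member of complex III rose in any culture and none of complex V was called (0 of 8 and 0 of 15 in edgeR with TMM and in DESeq2), although at an unadjusted p under 0.05 there were 1 and 3 upwards in Pax7+ iMPC and 0 in the others. With library-size scaling edgeR called 1 of each up in Pax7+ iMPC, Uqcrc2 (adjusted p = 0.0420) and Atp5g3 (0.0483). Uqcrc1 and Uqcrc2, the core proteins of complex III, had 560 and 247 CPM in Pax7+ iMPC, 280 and 99.0 in MEF, against 307 and 100 in QSC of mouse 1 and 179 and 86.3 in mouse 3. The Rieske iron-sulphur protein Uqcrfs1 had 298 CPM in Pax7+ iMPC and 77.3 in MEF, against 167 and 124 in QSC, so MEF lay below both mice and Pax7+ iMPC above. Uqcrh, the hinge protein that contacts cytochrome c1, had 173 CPM in Pax7+ iMPC, 121 in Pax7- iMPC, 123 in ASC and 58.3 in MEF, against 264 and 188 in QSC. On this scale every culture lay below both mice. By RPKM, scaled by library total alone, Pax7+ iMPC (383) lay above both mice (356 and 269) and Pax7- iMPC (276) between them. Uqcrh fell in MEF (log2 change -1.95 ± 0.66, edgeR adjusted p = 0.0465), a call lost under library-size scaling (edgeR adjusted p = 0.152) and without the low-count filter (0.0537; 0.00589 to 0.152 over the alternatives).

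In complex V the catalytic β subunit gene Atp5b was the nuclear member with the highest RPKM in every library. It had 1829 in Pax7+ iMPC, 1210 in Pax7- iMPC, 1274 in ASC, 851 in MEF, and 926 and 660 in QSC. The median nuclear member had 208, 159, 163 and 100 RPKM in the cultures, and 88.9 and 84.9 in QSC. RPKM are scaled by library total alone, so these values order genes within a library and do not compare cultures with QSC. On TMM-scaled CPM the nuclear median of MEF was log2 -0.52 from the QSC mean. The next in rank differed: Atp5g3, which encodes the proton-carrying c subunit, in both iMPC libraries and ASC, Ndufa4 in MEF and Cox4i1 in both QSC mice. On the CPM scale Atp5g3 had 853 in Pax7+ iMPC, 521 in Pax7- iMPC, 552 in ASC and 214 in MEF, against 365 and 262 in QSC, so the first 3 were above both mice and MEF below. Its change was 1.44 ± 0.61 in Pax7+ iMPC (log2 ± SE, edgeR adjusted p = 0.107). The catalytic partner Atp5a1 had 1820 CPM in Pax7+ iMPC, against 874 and 698 in QSC, and Atp5c1, the central stalk, 444 against 145 and 203; neither passed. Within the c subunit set the RPKM share of Atp5g3 was 69.3%, 67.4%, 71.3% and 59.6% in the 4 cultures, against 59.1% and 71.2% in QSC, and that of Atp5g2 did not exceed 2.93%.

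Nuclear respiratory genes are known targets of NRF1 and of ETS-family factors such as GABP, and their promoters are shown for Sdhd, called in Pax7+ iMPC, and for Atp5g3. The windows are from RefSeq, build GRCm38.p6, with 250 bases before and 50 after the gene start; both genes lie on the minus strand, Sdhd at chr9:50603800-50604099 and Atp5g3 at chr2:73911277-73911576, and are written 5′ to 3′ along the gene. Capitals mark the motifs searched on both strands: GCGCA and GCGC with 1 base between them (the NRF1 motif), CCGGAA (ETS, TTCCGG on the other strand) and ACGTG (the core of the hypoxia response element, CACGT on the other strand).
Sdhd: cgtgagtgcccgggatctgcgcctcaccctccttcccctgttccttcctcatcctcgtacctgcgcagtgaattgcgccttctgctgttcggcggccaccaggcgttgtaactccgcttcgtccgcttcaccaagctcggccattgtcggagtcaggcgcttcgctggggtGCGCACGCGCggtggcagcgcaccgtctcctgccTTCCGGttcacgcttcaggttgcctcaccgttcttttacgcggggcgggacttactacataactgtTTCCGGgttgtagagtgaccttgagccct
Atp5g3: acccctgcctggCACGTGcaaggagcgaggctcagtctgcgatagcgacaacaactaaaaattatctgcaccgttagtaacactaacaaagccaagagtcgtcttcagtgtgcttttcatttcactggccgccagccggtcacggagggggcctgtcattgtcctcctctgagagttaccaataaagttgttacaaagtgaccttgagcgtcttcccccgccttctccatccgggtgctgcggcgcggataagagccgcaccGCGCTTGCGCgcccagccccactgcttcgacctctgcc
The Sdhd window held the NRF1 motif 79 bases before the gene start and CCGGAA at 45 before and 21 after. That of Atp5g3 held the NRF1 motif 12 bases after the start and ACGTG, on both strands, at 238 and 237 before. A promoter was matched for 65 of the 83 nuclear members. The NRF1 motif was present in 16 of the 65 (24.6%), against 4.60% of all 32851 RefSeq promoters of that length, CCGGAA in 25 (38.5%, against 14.9%) and ACGTG in 16 (24.6%, against 19.6%). These are counts of letters in fixed windows, and binding was not measured.

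The 13 mitochondrially encoded members were lower in all 4 cultures than in QSC. The median log2 CPM difference was -1.48 in Pax7+ iMPC, -2.44 in Pax7- iMPC, -2.57 in ASC and -2.46 in MEF, where all genes had 0.01, 0.21, 0.08 and 0.05. All 13 lay below both mice in Pax7- iMPC, and 12 of 13 in each other culture, with mt-Nd3 between the mice. Of all genes tested, 37.1% lay below both mice in Pax7- iMPC, 40.6% in Pax7+ iMPC, 39.1% in ASC and 39.7% in MEF. Against mouse 1 alone the medians were -0.75, -1.75, -1.89 and -1.83, and against mouse 3 alone -2.16, -3.13, -3.29 and -3.25, so the size of the difference depended on the mouse. With library-size scaling they were -0.81, -1.73, -1.98 and -1.82 while the median of all genes was 0.63 to 0.89.

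In the test, 1 of 13 fell in Pax7+ iMPC, 7 in Pax7- iMPC, 9 in ASC and 10 in MEF, where 9.31%, 6.57%, 8.24% and 8.03% of all genes were called down. None rose: upwards 0 reached an unadjusted p under 0.05 in edgeR in any culture, and DESeq2 called 0. Downwards DESeq2 called 6, 11, 12 and 12, and with library-size scaling edgeR called 0, 1, 0 and 0. The main edgeR counts use scaling by TMM, the trimmed mean of M values; most of these falls were lost with library-size scaling, while DESeq2 called more. The ratio to the nuclear members does not depend on the scaling.

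mt-Cytb, the cytochrome b core of complex III and the only mitochondrial member of that complex, shows the pattern. It had 1093 CPM in Pax7+ iMPC, 538 in Pax7- iMPC, 453 in ASC and 517 in MEF, against 1835 and 5082 in QSC of mouse 1 and mouse 3. No culture overlapped the mice. The log2 change was -1.66 ± 0.85 in Pax7+ iMPC (edgeR adjusted p = 0.175), -2.68 ± 0.90 in Pax7- iMPC (0.0458), -2.93 ± 0.91 in ASC (0.0307) and -2.74 ± 0.90 in MEF (0.0410).

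Subunits of complex I behaved alike except for the short mt-Nd3 and mt-Nd4l. mt-Nd1 had 849 CPM in Pax7+ iMPC, 421 in Pax7- iMPC, 353 in ASC and 348 in MEF, against 1217 and 2238 in QSC. mt-Nd6, the only member encoded on the light strand, had 74.5, 44.8, 48.1 and 32.9 CPM in the cultures, against 156 and 470 in QSC, and fell in Pax7- iMPC, ASC and MEF (edgeR adjusted p = 0.0185, 0.0202 and 0.00879). Both lay below each mouse in every culture. mt-Nd3 had 61.8, 28.1, 32.2 and 35.9 CPM in the cultures, against 29.4 and 87.1 in QSC, with log2 changes of 0.09 ± 0.68 in Pax7+ iMPC and -0.70 ± 0.70 in MEF (edgeR adjusted p = 0.949 and 0.513). Its RPKM relative to that of mt-Nd1 was 0.200, 0.184, 0.251 and 0.283 in the cultures, against 0.0665 and 0.107 in QSC, above both mice each time. mt-Nd4l had 18.5, 9.22, 5.34 and 5.19 CPM, against 20.2 and 23.8, and was called in no culture by edgeR with TMM, while DESeq2 called it down in ASC and MEF (adjusted p = 0.0382 and 0.0364).

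Both ATP synthase members, which overlap on 1 transcript, were among the lower ones. mt-Atp6, the channel subunit, had 1397 CPM in Pax7+ iMPC, 719 in Pax7- iMPC, 583 in ASC and 639 in MEF, against 3008 and 7195 in QSC. mt-Atp8 had 81.0, 40.7, 34.8 and 37.8 CPM, against 188 and 387, and fell in Pax7- iMPC, ASC and MEF (log2 changes of -2.82 ± 0.73, -3.05 ± 0.74 and -2.93 ± 0.73, edgeR adjusted p = 0.0123, 0.00742 and 0.00980). All culture values were below both mice.

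mt-Co1 (ENSMUSG00000064351), the catalytic subunit of cytochrome c oxidase, departed from the other 12. It had 548 CPM in Pax7+ iMPC, 156 in Pax7- iMPC, 426 in ASC and 256 in MEF, against 4040 in QSC of mouse 1 and 1813 in mouse 3. It was the only mitochondrial member higher in mouse 1; the median difference of mouse 3 from mouse 1 over the 13 was log2 1.38, and over the nuclear members -0.24. mt-Co1 made up 15.5% of the mitochondrial RPKM in mouse 1 and 3.21% in mouse 3, against 4.07%, 2.23%, 6.43% and 4.02% in the cultures. It fell in every culture, with log2 changes of -2.42 ± 0.84 in Pax7+ iMPC (edgeR adjusted p = 0.0490), -4.23 ± 0.93 in Pax7- iMPC (0.00448), -2.78 ± 0.85 in ASC (0.0287) and -3.51 ± 0.89 in MEF (0.0105). The edgeR call in Pax7+ iMPC was lost with library-size scaling (adjusted p = 0.154), with DESeq2-style size factors (0.0539) and without the low-count filter (0.0555; 0.00138 to 0.154 over the alternatives). Library-size scaling also ended the calls in ASC (edgeR adjusted p = 0.104; 0.000128 to 0.104) and MEF (0.0646; 9.5e-07 to 0.0646). Without mt-Co1 the ratio of mitochondrial to nuclear counts was 0.362 in Pax7+ iMPC, 0.272 in Pax7- iMPC, 0.232 in ASC and 0.382 in MEF, against 0.850 and 2.61 in QSC.

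The other oxidase subunits were lower as well. mt-Co2, which receives electrons from cytochrome c, had 829, 460, 330 and 363 CPM in the cultures, against 1069 and 3570 in QSC, and fell in ASC and MEF (edgeR adjusted p = 0.0350 and 0.0435). mt-Co3 had 1493, 786, 935 and 763 CPM, against 2206 and 4850, and was called in no culture by edgeR with TMM, while DESeq2 called it down in Pax7- iMPC, ASC and MEF (adjusted p = 0.00391, 0.0116 and 0.00352). mt-Nd2, mt-Nd4 and mt-Nd5 had 173, 333 and 314 CPM in Pax7+ iMPC and 113, 201 and 147 in MEF, against 374, 760 and 467 in mouse 1 and 974, 2517 and 1403 in mouse 3.

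Copies of mitochondrial sequence in the nuclear genome can share reads with these genes. For 7 of the 13, more than 50% of their 50-base words were also present in other annotated transcripts, while mt-Nd1, mt-Nd6, mt-Cytb and mt-Atp8 shared none. Those 4 had median log2 changes of -1.74 in Pax7+ iMPC, -2.74 in Pax7- iMPC, -2.82 in ASC and -2.84 in MEF, with 0, 3, 4 and 4 of them called down. Their summed counts relative to the nuclear members were 0.113, 0.0796, 0.0632 and 0.112 in the cultures, against 0.255 and 0.742 in QSC. How the counting treated shared reads is not given in the sources used here.

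**Figure D3:**
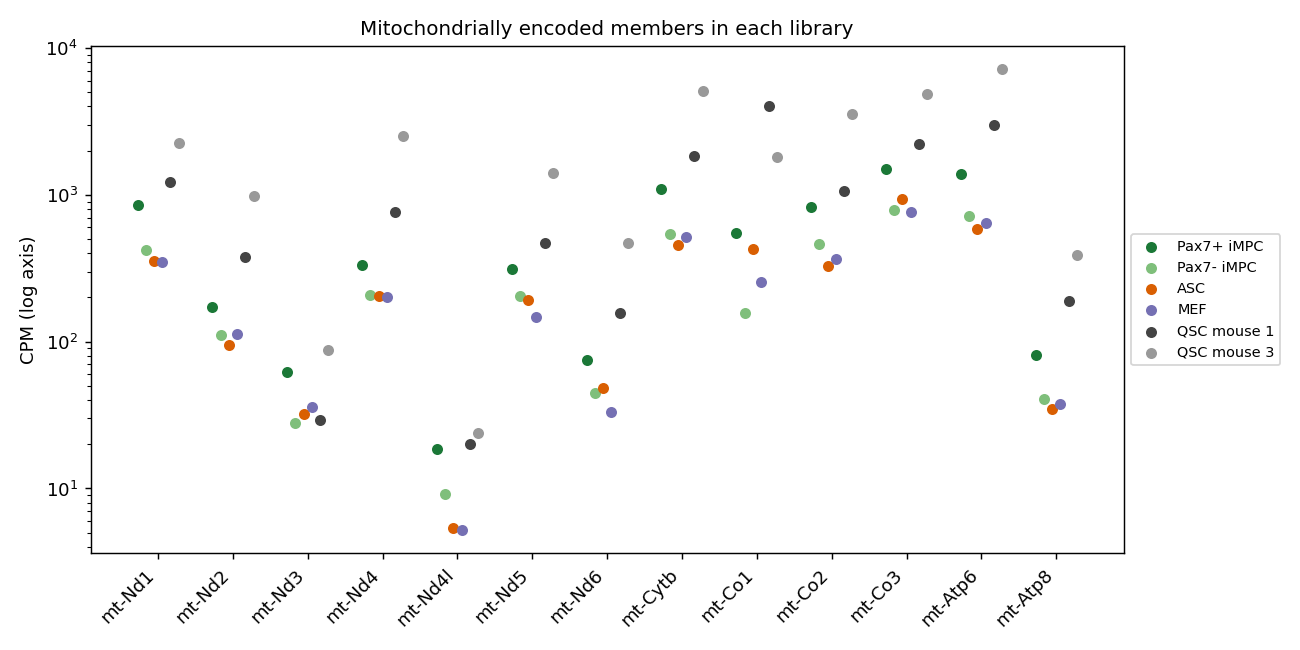
Each point is the scaled CPM (log axis) of a mitochondrially encoded member in 1 library, with the 4 cultures in colour and the QSC mice in dark and light grey. The grey points stand above the coloured ones except at mt-Nd3, where mouse 1 (29.4 CPM) is among the cultures, and mt-Co1 is the only gene at which mouse 1 (4040 CPM) is above mouse 3 (1813 CPM).

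Isoform genes of complex IV had the widest ranges of all members: Ndufa4l2 spanned 9.66 log2 units over the 6 libraries, Cox6a2 8.29, Cox8b 7.71 and Cox4i2 5.87, followed by mt-Co1 with 4.70. The widely expressed partners varied less. Cox4i1, the general partner of Cox4i2, had 406 CPM in Pax7+ iMPC, 318 in Pax7- iMPC, 327 in ASC and 192 in MEF, against 594 and 613 in QSC. Ndufa4, the partner of Ndufa4l2, had 189.9, 129, 247 and 148 CPM in the cultures, against 123 and 41.1 in QSC, with a range of 2.58 log2 units. Cox5a and Cox5b, nuclear subunits next to the oxidase core, had 389 and 179 CPM in Pax7+ iMPC and 131 and 72.8 in MEF, against 214 and 189 in mouse 1 and 193 and 115 in mouse 3, and were called in no culture.

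The muscle form Cox6a2 (ENSMUSG00000030785), a regulatory subunit of the oxidase in heart and skeletal muscle, had 0.804 CPM in Pax7+ iMPC, 13.4 in Pax7- iMPC, 36.0 in ASC and 0.0374 in MEF, against 0.429 and 0.317 in QSC. ASC and Pax7- iMPC stood far above both mice, Pax7+ iMPC slightly above, and MEF below. It rose by 6.58 ± 0.93 in ASC (log2 ± SE, edgeR adjusted p = 0.000100) and 5.16 ± 0.90 in Pax7- iMPC (adjusted p = 0.000741), with 1.101 ± 0.91 in Pax7+ iMPC (adjusted p = 0.413). Of the RPKM of Cox6a1 and Cox6a2 together, Cox6a2 gave 17.4% in ASC, 5.51% in Pax7- iMPC, 0.261% in Pax7+ iMPC and 0.0195% in MEF, against 0.0882% and 0.0701% in QSC. The order of the cultures was that of the summed differentiation markers above (ASC, Pax7- iMPC, Pax7+ iMPC, MEF); this is over 4 libraries, and their part in the result was not tested.

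Cox8b (ENSMUSG00000025488), the muscle form of the smallest oxidase subunit in rodents, had the same order of cultures but stood higher in QSC than in both iMPC fractions and MEF. It had 0.0643 CPM in Pax7+ iMPC (2 counts), 0.777 in Pax7- iMPC, 16.3 in ASC and 0 in MEF, against 2.96 and 2.17 in QSC. ASC was above both mice and the other cultures below both. Pax7+ iMPC was 39.7-fold lower than the pooled QSC (counting interval 10.7 to 332; edgeR adjusted p = 0.0220, with 3.6e-05 to 0.0696 over the alternatives and the call lost under library-size scaling), and MEF was at least 22.8-fold lower, taking 3 counts as the limit for its library (adjusted p = 0.00778). In ASC the change was 2.67 ± 1.00 (log2 ± SE, edgeR adjusted p = 0.0699). Cox8b gave 11.5% of the RPKM of the Cox8 pair in ASC, 0.481% in Pax7- iMPC and 0.0303% in Pax7+ iMPC, against 1.33% and 0.802% in QSC.

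The promoters of the Cox8 pair are shown because the muscle form and the general form are read side by side in every library. Both are on the minus strand in RefSeq GRCm38.p6, Cox8b at chr7:140900397-140900696 and Cox8a at chr19:7217567-7217866, with the same window of 300 bases. Capitals mark CAGCTG (an E-box of the class bound by MyoD, which reads the same on both strands), CCGGAA and ACGTG on either strand.
Cox8b: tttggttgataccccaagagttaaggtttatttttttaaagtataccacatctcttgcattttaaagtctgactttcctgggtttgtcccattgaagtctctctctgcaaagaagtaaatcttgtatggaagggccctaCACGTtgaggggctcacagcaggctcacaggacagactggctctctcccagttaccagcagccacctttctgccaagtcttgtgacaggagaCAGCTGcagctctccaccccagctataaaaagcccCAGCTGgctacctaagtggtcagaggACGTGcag
Cox8a: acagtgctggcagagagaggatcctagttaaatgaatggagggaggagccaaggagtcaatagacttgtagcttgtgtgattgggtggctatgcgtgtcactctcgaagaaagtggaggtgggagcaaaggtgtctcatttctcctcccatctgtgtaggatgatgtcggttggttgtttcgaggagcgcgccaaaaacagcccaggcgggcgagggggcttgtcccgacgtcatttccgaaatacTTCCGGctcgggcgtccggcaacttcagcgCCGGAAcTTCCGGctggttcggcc
The Cox8b window held CAGCTG 19 bases before and 16 bases after the gene start, and ACGTG 111 before and 42 after. That of Cox8a held no CAGCTG and had CCGGAA 4 bases before and at 26 and 33 bases after the start. CAGCTG was found in 6 of the 65 members' promoters (9.23%), against 16.3% of all RefSeq promoters.

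Cox7a1 (ENSMUSG00000074218), the third muscle form, stayed low. It had 1.45 CPM in Pax7+ iMPC, 1.86 in Pax7- iMPC, 1.90 in ASC and 0.336 in MEF, against 1.19 and 0.452 in QSC. The first 3 were above both mice and MEF was below, and no change passed (edgeR adjusted p of 0.552 to 0.700). Its share of the Cox7a RPKM was 1.32%, 2.23%, 2.18% and 0.624% in the cultures, against 0.984% and 0.449% in QSC, with Cox7a2 at 66.4% or more everywhere.

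Ndufa4l2 (ENSMUSG00000040280), a paralogue of the oxidase subunit gene Ndufa4 known as a hypoxia-induced gene, set the iMPCs apart from all other libraries. It had 22.2 CPM in Pax7+ iMPC, 203 in Pax7- iMPC, 0.172 in ASC and 0.224 in MEF, against 3.00 and 2.44 in QSC. The ASC and MEF values rest on 4 and 6 counts. Both iMPC fractions were above both mice, and ASC and MEF below. It rose by 3.02 ± 0.61 in Pax7+ iMPC (log2 ± SE, edgeR adjusted p = 0.00232) and 6.22 ± 0.66 in Pax7- iMPC (adjusted p = 1.2e-05), and fell in ASC (-3.94 ± 0.89, adjusted p = 0.00455) and MEF (-3.57 ± 0.84, adjusted p = 0.00656). The falls were lost when only those groups and QSC were fitted (edgeR adjusted p = 0.0695 in ASC and 0.0927 in MEF, the highest over the alternatives, with lowest values of 0.000445 and 0.000527). Ndufa4l2 gave 5.64% of the Ndufa4 pair's RPKM in Pax7+ iMPC and 44.7% in Pax7- iMPC, against 0.0358% in ASC, 0.0775% in MEF, and 1.23% and 2.96% in QSC.

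Cox4i2 (ENSMUSG00000009876), the form of lung and hypoxic cells, went with it in Pax7- iMPC: 2.12 CPM in Pax7+ iMPC, 17.1 in Pax7- iMPC, 0.215 in ASC and 0.224 in MEF, against 0.668 and 1.13 in QSC. Both iMPC fractions were above both mice and the other cultures below. It rose in Pax7- iMPC by 4.24 ± 1.06 (log2 ± SE, edgeR adjusted p = 0.0102) and stood at 1.23 ± 1.05 in Pax7+ iMPC (adjusted p = 0.425). Its share of the Cox4 pair was 5.18% in Pax7- iMPC, 0.530% in Pax7+ iMPC and at most 0.187% elsewhere. Cox6b2 (ENSMUSG00000051811), known as a testis form, had 15.2 CPM in Pax7+ iMPC, 32.5 in Pax7- iMPC, 7.93 in ASC and 5.01 in MEF, against 6.82 and 6.19 in QSC, and rose in Pax7- iMPC by 2.32 ± 0.73 (adjusted p = 0.0340; 0.00337 to 0.0513 over the alternatives, lost with DESeq2-style size factors).

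Ndufa4l2 and Cox4i2 are also known as genes of pericytes, the mural cells of small vessels. A list of 7 pericyte genes, chosen after these values were seen, summed to 370 CPM in Pax7+ iMPC, 707 in Pax7- iMPC, 286 in ASC and 374 in MEF, against 157 and 355 in QSC; 2 of the 7 were at 0 in ASC and none in the other libraries. Kcnj8, which encodes a potassium channel subunit of these cells, had 19.98, 100, 0 and 1.08 CPM in the cultures, against 3.00 and 3.62, and its partner Abcc9 17.3, 73.1, 42.0 and 1.16, against 5.82 and 4.70. Pdgfrb, a growth factor receptor, had 103, 388, 3.36 and 173 CPM, against 6.77 and 13.8, and Higd1b 0.0322, 1.11, 0 and 0.0747, against 0.668 and 0.0452. These 4 genes were highest in Pax7- iMPC, and the other 3 of the list were not. Rgs5 was highest in ASC (14.6, 50.7, 155 and 15.0 CPM in the cultures, against 16.0 and 17.0 in QSC). Cspg4 was highest in MEF and lowest in Pax7- iMPC (2.48, 1.11, 34.5 and 160.2 CPM, against 7.15 and 5.34), and Notch3 was highest in QSC of mouse 3 (212, 92.4, 51.7 and 23.0 CPM, against 118 and 310.0). The list's part in the result was not tested.

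**Figure D4:**
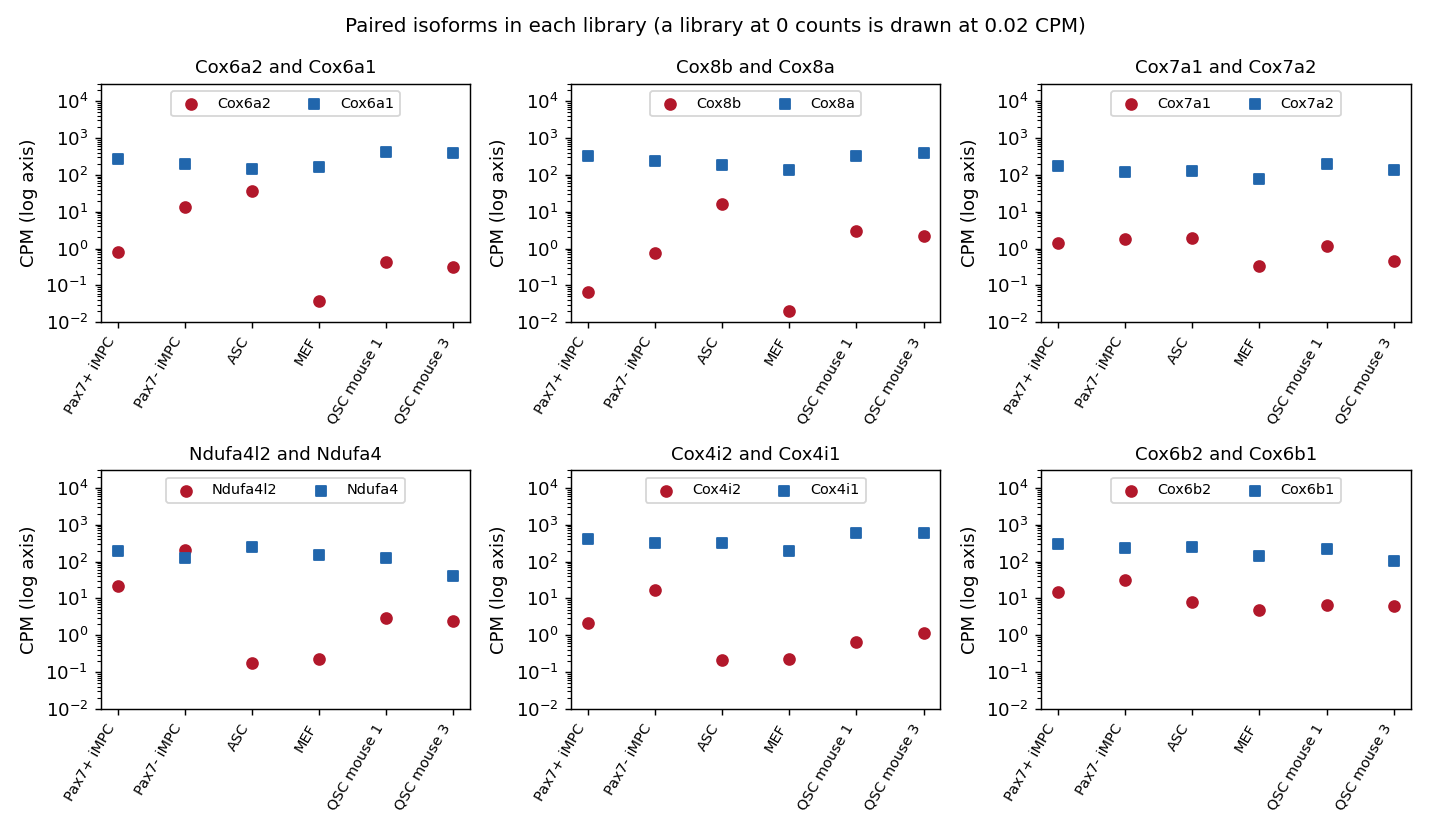
Each panel gives the scaled CPM (log axis) of a tissue-restricted isoform gene (red circles) and its widely expressed partner (blue squares) in the 6 libraries, with MEF drawn at 0.02 CPM for Cox8b, where it has 0 counts. The partners stay within about 1 order of magnitude, while Cox6a2 runs from 0.0374 CPM in MEF to 36.0 in ASC and Ndufa4l2 from 0.172 in ASC to 203 in Pax7- iMPC.

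Between the sorted iMPC fractions, each with 1 library and so with no test, the Pax7+ fraction carried more of the general subunits and less of the restricted isoforms. Of 83 nuclear members 70 were higher in Pax7+ iMPC than in Pax7- iMPC (7737 of all 17116 genes were), with a median log2 difference of 0.41 (all genes -0.05). None was 2-fold or more higher with at least 5 CPM (0 of 83; 3.25% of all genes were), and 4 were 2-fold or more lower (8.66% of all genes were): Cox6a2 at 0.0598 of its Pax7- level (counting interval 0.0383 to 0.0897), Ndufa4l2 at 0.109 (0.101 to 0.118), Cox4i2 at 0.125 (0.0948 to 0.161) and Cox6b2 at 0.468 (0.418 to 0.523). All 13 mitochondrial members were higher in Pax7+ iMPC (median 0.96), and mt-Co1 (3.53-fold), mt-Nd3 (2.20), mt-Cytb (2.03) and mt-Nd1 (2.02) passed 2-fold. Counting intervals cover counting error only and compare these libraries.

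Against ASC, 64 of 83 nuclear members were higher in Pax7+ iMPC, where 8317 of all 17116 genes were (median log2 0.35, all genes 0.00). Ndufa4l2 was 2-fold or more higher (129-fold, counting interval 50.02 to 474), where 6.42% of all genes were, and Cox8b (2 counts against 378) and Cox6a2 (0.0224 of the ASC level, 0.0144 to 0.0332) were lower, where 10.2% of all genes were. The mitochondrial members were all higher (median 0.94), 6 of 13 by 2-fold or more, with mt-Nd4l at 3.46-fold and mt-Co2 at 2.51-fold.

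Against MEF, the fibroblast type the protocols name as a starting cell, the difference ran through the whole chain. Of 83 nuclear members 81 were higher in Pax7+ iMPC (8300 of all 17116 genes were), with a median log2 difference of 1.00 (all genes 0.00). By 2-fold or more 39 were higher, where 8.47% of all genes were, and 0 were lower, where 11.8% were. Ndufa4l2 was 98.9-fold higher (counting interval 45.2 to 270.4), Atp5g3 3.99-fold, Uqcrfs1 3.86-fold, mt-Nd4l 3.56-fold and Ndufv1 3.26-fold. By complex, 12 of 35 complex I members passed 2-fold, 2 of 4 in complex II, 7 of 8 in complex III, 8 of 18 in complex IV and 10 of 15 in complex V. The medians were 0.76, 1.19, 1.33, 1.14 and 1.07 in that order. All 13 mitochondrial members were higher too, 9 of them by 2-fold or more (median 1.096).

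In Pax7- iMPC the same comparison with MEF gave 79 of 83 nuclear members higher, where 8618 of all 17116 genes were (median 0.62, all genes 0.01). By 2-fold or more 12 were higher, where 8.53% of all genes were, and 0 were lower, where 7.37% were. Ndufa4l2 was 905-fold higher (counting interval 415 to 2467), Cox6a2 360-fold (398 counts against 1), Cox4i2 76.1-fold, Cox6b2 6.48-fold and Ndufs5 2.58-fold. The mitochondrial members had a median of 0.11, and 0 of 13 passed 2-fold in either direction.

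**Figure D5:**
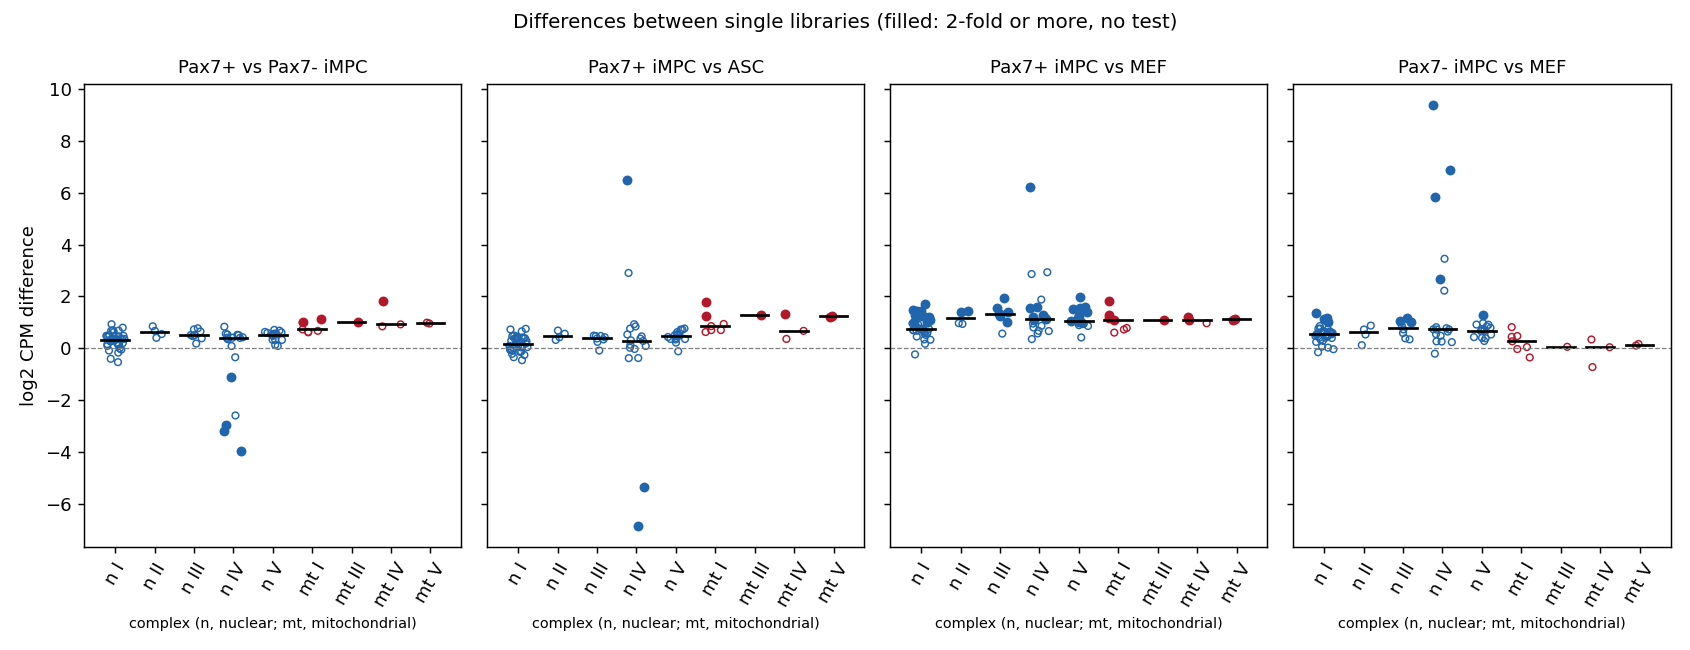
Points give the log2 CPM difference of each member between 2 libraries, by complex and genome (n nuclear in blue, mt mitochondrial in red), with medians as black lines; filled points are 2-fold or more apart with at least 5 CPM in the higher library, and no test was made. In the panel of Pax7+ iMPC over MEF nearly all points are above 0 (nuclear median 1.00, mitochondrial 1.096), and in the panel of Pax7- iMPC over MEF the mitochondrial median is 0.11.

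Genes that build and feed the chain were read from lists. Beside each count of these lists stand the shares of all genes called, 11.3% up and 9.31% down in Pax7+ iMPC, 12.1% and 6.57% in Pax7- iMPC, 11.8% and 8.24% in ASC, and 11.3% and 8.03% in MEF. Among 46 tested assembly factors, which insert cofactors and join subunits, 9 rose and 1 fell in Pax7+ iMPC, 7 and 1 in Pax7- iMPC, 7 and 1 in ASC, and 6 and 1 in MEF. Their median log2 differences were 1.29, 0.89, 0.94 and 0.64, where all genes had 0.01, 0.21, 0.08 and 0.05. Taco1, which activates translation of the mt-Co1 message, had 10.1 CPM in Pax7+ iMPC, 6.42 in Pax7- iMPC, 6.72 in ASC and 5.16 in MEF, against 0.668 and 0.497 in QSC, and rose by 4.10 ± 0.99 in Pax7+ iMPC (log2 ± SE, edgeR adjusted p = 0.00743). Cox15, which makes the heme A of the oxidase, had 89.2, 66.3, 68.4 and 42.5 CPM in the cultures, against 13.3 and 9.32. Both stood above both mice in every culture and were called in all 4. The complex II assembly factor Sdhaf4, named 1110058L19Rik in the files, rose by 3.38 ± 0.76 in Pax7+ iMPC (edgeR adjusted p = 0.00479), and Coa5 by 2.78 ± 0.58 (adjusted p = 0.00279). The factor that fell in all 4 was Ttc19, which acts on the Rieske protein of complex III: 28.0, 31.0, 35.3 and 37.6 CPM in the cultures, against 155 and 194 in QSC.

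Of 30 tested genes for the replication, transcription and RNA processing of mitochondrial DNA, 10 rose in Pax7+ iMPC (all genes 11.3%), 3 in Pax7- iMPC (12.1%), 4 in ASC (11.8%) and 2 in MEF (11.3%), and 0 fell (1, 1, 1 and 2 fell at an unadjusted p under 0.05; DESeq2 called 1, 0, 0 and 2 down). The mitochondrial RNA polymerase gene Polrmt had 61.7 CPM in Pax7+ iMPC, 39.0 in Pax7- iMPC, 51.8 in ASC and 46.5 in MEF, against 9.06 and 8.77 in QSC, and rose by 2.79 ± 0.60 in Pax7+ iMPC (edgeR adjusted p = 0.00364). Lrpprc, which stabilises mitochondrial mRNAs, had 156, 78.9, 122 and 72.1 CPM in the cultures, against 20.5 and 18.1. Every culture was above both mice for both genes, and both were called in all 4. Ptcd2 and Supv3l1, which act in mitochondrial RNA processing and decay, rose in Pax7+ iMPC by 2.93 ± 0.63 and 2.64 ± 0.73 (edgeR adjusted p = 0.00352 and 0.0171). Of 76 mitochondrial ribosomal protein genes 13 rose and 2 fell in Pax7+ iMPC (all genes 11.3% and 9.31%), 4 and 2 in Pax7- iMPC (12.1% and 6.57%), 3 and 1 in ASC (11.8% and 8.24%), and 2 and 1 in MEF (11.3% and 8.03%), with Mrpl34 the furthest (40.1, 35.2, 22.8 and 28.6 CPM in the cultures, against 3.86 and 2.40 in QSC).

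Of 14 TCA cycle genes 3 rose in Pax7+ iMPC (all genes 11.3%), among them Cs, citrate synthase, by 2.13 ± 0.59 and Suclg1 by 1.96 ± 0.58 (log2 ± SE, edgeR adjusted p = 0.0164 and 0.0232). In the other cultures 0 rose in edgeR, with 2 in Pax7- iMPC, 3 in ASC and 1 in MEF at an unadjusted p under 0.05 and 0, 1 and 0 by DESeq2. Of 13 carrier genes 0 were called in Pax7+ iMPC, Pax7- iMPC and ASC (2, 0 and 1 upwards and 0, 1 and 1 downwards at an unadjusted p under 0.05; DESeq2 called 1, 0 and 0 up and 0, 1 and 1 down), and Slc25a5, an ADP/ATP carrier, and Ucp2 fell in MEF (adjusted p = 0.0315 and 0.0248).

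Among 14 regulators of mitochondrial biogenesis, 2 rose and 1 fell in Pax7+ iMPC (all genes 11.3% and 9.31%), 1 and 2 in Pax7- iMPC (12.1% and 6.57%), 2 and 2 in ASC (11.8% and 8.24%), and 1 and 3 in MEF (11.3% and 8.03%). Esrra, a nuclear receptor that drives genes of oxidative metabolism, had 53.2 CPM in Pax7+ iMPC, 35.3 in Pax7- iMPC, 40.4 in ASC and 21.7 in MEF, against 3.05 and 3.84 in QSC, was above both mice in each culture and rose in all 4 (by 3.95 ± 0.64 in Pax7+ iMPC, edgeR adjusted p = 0.00048). Its coactivator gene Ppargc1b had 59.2, 18.3, 26.3 and 0.635 CPM, against 2.62 and 10.9. It rose in Pax7+ iMPC by 3.12 ± 0.77 (log2 ± SE, edgeR adjusted p = 0.00839) and fell in MEF (-3.41 ± 0.99, adjusted p = 0.0219). Myc, a growth regulator that is also an early response gene, had 155, 127, 81.2 and 133 CPM in the cultures, against 4093 and 1754 in QSC, and fell in all 4. Gabpb1, which encodes a subunit of the ETS-family complex GABP, had 41.6, 33.5, 37.8 and 36.5 CPM in the cultures, against 147 and 159 in QSC, and fell in Pax7- iMPC, ASC and MEF, while Esrrb, a relative of Esrra, rose in ASC alone among the edgeR calls, to 6.25 CPM.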

How the data were processed

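Poly(A)-selected RNA was sequenced in 6 mouse libraries, with a directional kit per the labels. The authors deposited raw read counts per gene and RPKM values; the submitters' processing notes name STAR 2.3.0, HTSeq 0.6.0, Picard 1.100, edgeR and the mm9 build, while step order, gene annotation and strand setting are not stated there. The counts were fitted with edgeR 4.0.16 (TMM scaling, filterByExpr, quasi-likelihood test, 1 coefficient per group, Benjamini-Hochberg adjustment over 17116 genes, threshold 0.05) in R 4.3.3. The fit had 1 residual degree of freedom, from the QSC mice, and 16.3 prior degrees of freedom. The p-values thus rest mostly on a spread shared over genes, and each lone library is assumed to vary alike. SE is the log2 fold change divided by the square root of F. CPM are scaled by TMM, and medians are of log2 CPM (prior count 2). Levels of different genes were compared by the deposited RPKM. Pairs of single libraries were compared by size (2-fold or more, at least 5 CPM in the higher) with exact 95% counting intervals, which cover counting error only. The genes named are the isoform sets, the mitochondrial members, core subunits of each complex, the called members with the largest changes in each comparison, the members with the widest and narrowest ranges, and up to 4 called genes with the largest change per pathway list. DESeq2 1.42.0, library-size and DESeq2-style scaling, scaling without mitochondrial genes, other filters and prior counts, a 4-fold limit, deposited RPKM, a preset variation, fits of only the compared groups and leaving out a QSC mouse were the alternatives. The fit was tested on simulated data. The members and lists were chosen with earlier results of these data known. Values of some genes under the naming rule are not reported here.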

Additional observations from a re-analysis of the deposited data

How the results depend on the processing

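With library-size scaling, members called up in Pax7+ iMPC numbered 9 (main 3), and members called down numbered 0 in Pax7+ iMPC (main 2), 1 in Pax7- iMPC (main 7), 1 in ASC (main 10) and 2 in MEF (main 13). The nuclear medians were then 1.33, 0.97, 0.91 and 0.12 in that order, the last reversed from -0.52. Members down in Pax7+ iMPC numbered 1 with DESeq2-style size factors, 1 without the low-count filter, 7 with DESeq2 and 7 with a preset variation; in Pax7- iMPC the last 2 gave 11 each. Pax7+ iMPC over Pax7- iMPC had 4 members higher by size, against 2 with library-size scaling, 7 with DESeq2-style size factors, 0 at 4-fold and 2 on deposited RPKM. At 4-fold, 1 was higher against ASC (main 7), 1 against MEF (main 48), and 4 in Pax7- iMPC over MEF (main 12). Leaving out either QSC mouse gave nuclear medians (lower value against mouse 1) of 0.41 to 0.80 in Pax7+ iMPC, 0.037 to 0.29 in Pax7- iMPC, 0.17 to 0.39 in ASC and -0.64 to -0.36 in MEF. For single genes, in settings that give an adjusted p, 1347 values kept their side of the threshold, 42 gained a call and 41 lost it. Called genes kept their direction, while the direction of genes that stayed uncalled was not compared. In the comparisons of 1 library with 1, which give a value and no p, 4 values moved and 0 reversed. For single genes, leaving out a QSC mouse was no check. Its limit was the spread between the mice, which exceeds the shift from leaving out 1, and reversals were sought only for called genes. The causes were not tested. No paired analysis was possible because each culture has 1 library and its number does not pair it with a mouse. Depth limits the rarest isoforms, such as Cox8b with 2 counts in Pax7+ iMPC and 0 in MEF. Ndufa4l2 had 4 counts in ASC and 6 in MEF, and Cox4i2 5 and 6. Cox6a2 had 1 count in MEF, and 9 and 7 in QSC of mouse 1 and mouse 3.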
